A study of Mus musculus with 16 samples.

Results

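The Slc26 genes encode a family of membrane proteins that move chloride, bicarbonate, sulfate, iodide and oxalate across cell membranes. They were followed here over the parts of the E11.5 mouse kidney, E11.5 being the embryonic day, with Slc26a7 as the member of most interest. The 9 members were Slc26a1, Slc26a2, Slc26a3, Slc26a4, Slc26a6, Slc26a7, Slc26a8, Slc26a10 and Slc26a11. They were taken as every probe set whose platform annotation gave one of these symbols and no other, which made 17 probe sets of 45037 on the array and 9 genes of 18193 with a probe set of their own. The family was picked because Slc26a7 had a large deficit in Hoxa11/Hoxd11 null mesenchyme, so the values of that comparison chose the members and are given as a description, with no p-value.

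At this stage the ureteric bud, an epithelial tube from which the collecting ducts will branch, has grown into the metanephric mesenchyme, the source of nephrons and stroma. Per the labels, 16 arrays fell into 4 groups, all from embryos of this day. The first group was 4 wild-type ureteric bud samples, each pooled from 3 to 9 buds that were separated by hand after collagenase B at 0.5 mg/ml and 37 °C. The second was 5 samples of metanephric mesenchyme from Hoxa11/Hoxd11 double null embryos, lifted by laser capture from sections 7 µm thick of urogenital ridges. The third was 4 samples of wild-type mesenchyme, laser-captured from 7 µm sections of kidney rudiments and pooled from 3 to 4 mesenchymes each. The last was 3 wild-type samples of individual mesenchymes freed by hand with the same collagenase. The series text describes the replicates of a group as separate embryos, although the labels give pools for the bud and wild-type capture samples. The null and wild-type captures differed in the piece that was sectioned and in the pooling as well as in genotype, and these cannot be told apart. The labels name no strain, litter or scan date, which leaves no batch to test.

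Values are MAS5 signals, a linear intensity per probe set, with array medians between 112.7 and 209.2. The highest median was that of null capture replicate 1, while the other null captures lay between 112.7 and 128.9. Signals at or below the array median carry large errors on this scale, so each member is given with the number of arrays in which it stood above that median. Probe sets differ in brightness for reasons of their own, so no level is set against that of another gene. A sample is a piece of tissue, in which fewer cells of a type and less RNA per cell cannot be told apart. The labelled tissues were checked against marker lists. The summed signal of the ureteric bud markers was 207192 to 248006 in the bud arrays, 19047 to 56471 in the null captures, 15567 to 65260 in the wild-type captures and 4125 to 13975 in hand-dissected mesenchyme. Stromal markers summed to 3599 to 7013 in the bud arrays, against 119508 to 162308 in hand-dissected mesenchyme. Of the tested markers, 12 of 13 for the ureteric bud were called higher in bud than in hand-dissected mesenchyme, while for nephron progenitors 8 of 9 were called lower and 1, Cited1, higher. Over all genes tested in that comparison, 13.9% were called higher and 14.6% lower. The targeted gene Hoxa11 averaged 124 ± 44.5 in null captures and 709 ± 147 in wild-type captures (SD, n = 5 and 4), and Hoxd11 averaged 341 ± 121 and 435 ± 115 in the same order of groups. The position of either probe set relative to the disruption was not checked. The ratio of the 3′ to the 5′ Gapdh control probe set, which grows with RNA shortening and amplification bias, was 6.53 to 12.2 in bud, 18.4 to 26.3 in null captures, 14.3 to 22.9 in wild-type captures and 22.1 to 69.3 in hand-dissected mesenchyme. For the Actb control the ratio was 10.9 to 16.3 in bud and 17.5 to 27.6 in null captures. It was 14.8 to 20.9 in wild-type captures and 11.1 to 17.9 in hand-dissected mesenchyme. Gapdh and Actb thus order the groups differently.

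In adult tissues the family divides by what it carries. Slc26a1, Slc26a2 and Slc26a11 carry sulfate, and cells need sulfate to build the sulfated sugar chains of proteoglycans. Slc26a3, Slc26a4, Slc26a6 and Slc26a7 carry chloride and exchange it for other anions, mainly bicarbonate. Slc26a7 is known from the acid-secreting cells of the kidney collecting duct and the stomach, and Slc26a4 (pendrin) from the base-secreting cells of the same ducts, the thyroid and the inner ear. Slc26a8 belongs to the testis and sperm, and little is known of Slc26a10.

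Promoter sequences from RefSeq (build GRCm38.p6), covering 250 bases before to 50 bases after the annotated start, matched 6 of the 9 members in 7 entries. Slc26a7 was not among them. The sequences of 3 members are shown because they belong to chloride carriers with different readouts in these arrays. Slc26a6 stood above the array median in 16 of 16 arrays, Slc26a4 in 7 and the representative Slc26a3 probe set, the one with the highest mean, in 0. Each is written 5′ to 3′ on the strand of its gene, with the letters CG in capitals, and with TATAAA in capitals where it occurs.
Slc26a6: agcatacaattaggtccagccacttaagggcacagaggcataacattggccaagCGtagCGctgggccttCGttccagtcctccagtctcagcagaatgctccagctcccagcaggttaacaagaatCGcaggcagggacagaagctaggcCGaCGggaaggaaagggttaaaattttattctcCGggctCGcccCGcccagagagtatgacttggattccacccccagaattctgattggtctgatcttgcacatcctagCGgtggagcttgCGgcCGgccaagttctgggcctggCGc
Slc26a4: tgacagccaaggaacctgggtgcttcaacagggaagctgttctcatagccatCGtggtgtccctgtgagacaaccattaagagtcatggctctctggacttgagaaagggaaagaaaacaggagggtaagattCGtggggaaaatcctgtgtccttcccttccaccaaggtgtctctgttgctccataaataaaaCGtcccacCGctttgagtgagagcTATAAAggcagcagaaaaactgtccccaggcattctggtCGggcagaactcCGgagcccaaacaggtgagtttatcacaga
Slc26a3: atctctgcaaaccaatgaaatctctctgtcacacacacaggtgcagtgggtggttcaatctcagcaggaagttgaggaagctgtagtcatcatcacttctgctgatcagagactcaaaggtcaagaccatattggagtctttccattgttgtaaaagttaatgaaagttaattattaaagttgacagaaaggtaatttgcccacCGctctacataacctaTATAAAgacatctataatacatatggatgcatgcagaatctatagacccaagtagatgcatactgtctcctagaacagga

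The Slc26a6 window lies at chr9:108853793-108854092 on the plus strand. It holds 13 CG pairs and no TATAAA on either strand, and 37.9% of the 32851 promoters in the table hold as many CG pairs. The Slc26a4 window, at chr12:31559935-31560234 on the minus strand, holds 6 CG pairs and a TATAAA that begins 31 bases before the start, and 56.4% of promoters hold as many CG pairs. The Slc26a3 window, at chr12:31437969-31438268 on the plus strand, holds 1 CG pair, a count that 94.6% of promoters reach, and a TATAAA that begins 30 bases before the start. The median promoter held 7 CG pairs, and 13.6% held TATAAA when both strands were searched. CG and TATAAA share no overlapping letters. Of the members not shown, Slc26a8 had 8 CG pairs and no TATAAA, and its representative probe set passed the array median in 1 array. Slc26a10 had 4 CG pairs and TATAAA on the opposite strand. The entries of Slc26a1 had 1 and 4 CG pairs, the first with TATAAA on the opposite strand. Both genes passed the median in 0 arrays. These matches describe the letters in the windows only, and their relation to the signals was not tested.

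Slc26a7 separated the wild-type mesenchyme from both the bud and the null mesenchyme. Its brighter probe set gave signals of 29.2, 14.2, 43.2 and 173.4 in the bud arrays. In the null captures it gave 534.6, 121.2, 19.9, 191.2 and 40.4. The wild-type captures gave 1938.2, 2479.0, 7520.5 and 5484.4, and hand-dissected mesenchyme gave 890.9, 2199.4 and 7684.5. All 7 wild-type mesenchyme arrays lay above all 5 null and all 4 bud arrays. Bud and hand-dissected arrays did not overlap in 32.1% of all probe sets tested between them, and null and wild-type captures did not in 8.82%. No such share was computed for the 7 wild-type mesenchyme arrays against the null and bud arrays together. The separation of the captures comes from the values that chose the gene. Null captures and hand-dissected samples also differ in the way they were isolated. The bud and null ranges overlapped, and so did the ranges of captured and hand-dissected wild-type mesenchyme. The signal was above the array median in 1 of 4 bud arrays, 3 of 5 null captures, 4 of 4 wild-type captures and 3 of 3 hand-dissected samples. Ranked within its own array, it stood between the percentiles 15.9 and 54.7 in bud, 21.0 and 63.2 in null captures, 80.0 and 92.4 in wild-type captures, and 74.0 and 92.2 in hand-dissected mesenchyme.

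**Figure D1:**
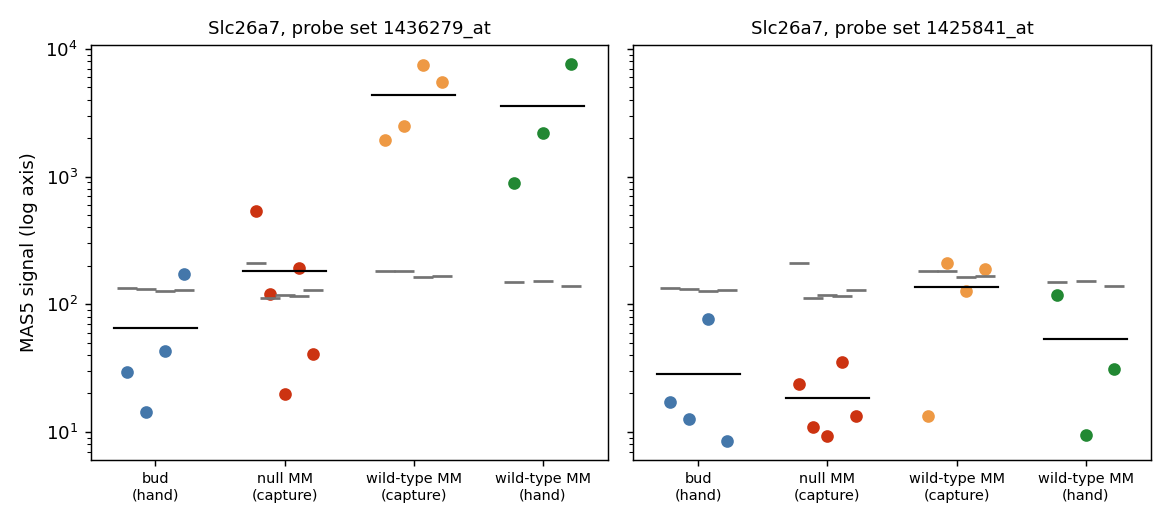
MAS5 signal of the brighter (left) and dimmer (right) Slc26a7 probe set on a log axis, 1 point per array, by group. Black lines are group means and short grey lines are the arrays' own medians; the brighter probe set lies between 890.9 and 7684.5 in wild-type mesenchyme and at or below 534.6 in all bud and null arrays, while the dimmer one passes the array median in 2 wild-type captures.

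The comparison of bud with hand-dissected mesenchyme asks which compartment of the rudiment carries a transcript, and it shared no array with the comparison that chose the family. That choice still favoured a gene high in wild-type mesenchyme, so for Slc26a7 the p-value here is not independent of it. Signals were set on the scale log2(signal + 36.3), where 36.3 is the 25th percentile of all values, an offset that shrinks the differences of dim probe sets. Probe sets entered the test if their signal passed the array median in a number of arrays no smaller than the size of the smaller group, and a call needed an adjusted p under 0.05 (limma, Benjamini-Hochberg over all probe sets tested). Slc26a7 averaged 65.0 ± 73.2 in bud and 3592 ± 3604 in hand-dissected mesenchyme (SD, n = 4 and 3). It fell by 4.87 on the log2 scale in bud (SE 0.64, adjusted p = 0.000154 by limma). Its 3 hand-dissected arrays were enough to pass the filter, with 1 of 4 bud arrays above the median. With no filter the adjusted p of Slc26a7 was 0.000686 by limma. It was the one member called there, with 1 lower and 0 higher among the 6 of 17 Slc26 probe sets tested, beside 23.9% of all 23851 tested probe sets called, 2952 of them higher and 2749 lower. The difference was −5.59 to −3.72 over the alternative settings, and it passed the threshold in all 18 of them. Of the tested stromal, endothelial and blood markers, 9 of 9, 6 of 7 and 7 of 7 were also called lower in bud. Endothelial markers summed to 4956 to 7951 in bud and 15191 to 22860 in hand-dissected mesenchyme, and blood and macrophage markers to 1167 to 6360 and 26882 to 33301. Of these, the macrophage markers Tyrobp and C1qb were at or below the array median in all bud arrays, and C1qa was so in all bud and all hand-dissected arrays. Their part in the result was not tested.

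In null against wild-type captures, Slc26a7 averaged 181 ± 209 and 4356 ± 2624 (SD, n = 5 and 4). The difference was −4.62 on the log2 scale with an SE of 0.66. Among genes ordered by this difference it came second. The gene ahead of it was AI506816 (−4.75 ± 1.06 SE), which averaged 1193 ± 2317 in null captures and 8020 ± 1233 in wild-type captures, with 1 null array at 5330.5. Next below it were Cap1, an actin regulator (−3.79 ± 0.43 SE), and Tmem267 (−3.73 ± 0.31 SE). In this comparison 1 of 5 tested Slc26 probe sets passed the threshold as lower and 0 as higher, beside 1.76% of 23387 tested probe sets called and 1.17% called lower. As the family was chosen from these values, nothing is read from that count.

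The difference of Slc26a7 between the captures ranged from −5.09 to −3.78 over 20 alternative settings. Without null replicate 1, the null array with the highest signal, it was −5.09. Markers of other cell types also varied between the captures. Blood and macrophage markers summed to 32919 to 77472 in null captures and 37619 to 102886 in wild-type captures, with a median difference of −1.63 over 9 tested genes and 1 called lower, Tyrobp (−2.28). Endothelial markers summed to 9921 to 24166 and 15354 to 38118, with a median difference of −0.90 over 9 genes and 0 called. Neuronal and neural crest markers summed to 34176 to 76184 in null captures and 22481 to 28087 in wild-type captures, with a median of 1.34 over 8 genes and 3 called higher. Over all tested genes the median was −0.10, with 0.748% called higher and 0.995% called lower. Gonad and coelomic markers summed to 702 to 29318 in null captures and 629 to 1261 in wild-type captures. Nephron progenitor markers summed to 20741 to 95053 and 39179 to 75268 in the same order, with a median difference of −0.44 over 9 genes. Stromal markers summed to 125113 to 210510 and 127108 to 160761, with a median of −0.14 over 10 genes. Ureteric bud markers had a median of −0.66 over 13 genes. In each of these last lists 0 were called. The part of these markers in the Slc26a7 result was not tested.

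Captured and hand-dissected wild-type mesenchyme gave Slc26a7 at 4356 ± 2624 and 3592 ± 3604, a difference of 0.59 with an SE of 0.63 on the log2 scale. Its direction was not fixed, at −0.13 without hand-dissected replicate 5 and 1.40 without replicate 7. The spread within a group was wide. The highest signal exceeded the lowest 12.2-fold in bud, 26.9-fold in null captures, 3.9-fold in wild-type captures and 8.6-fold in hand-dissected mesenchyme. The hand-dissected sample with the lowest Slc26a7 signal, replicate 5 at 890.9, also had the highest Gapdh 3′ to 5′ ratio, 69.3, and the part of that ratio in its signal was not tested. The Actb ratio of this sample was 17.9, against 11.1 and 12.4 in hand-dissected replicates 6 and 7.

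A second Slc26a7 probe set was dim. It gave 17.2, 12.7, 76.1 and 8.5 in bud, and 23.8, 10.9, 9.3, 35.5 and 13.3 in the null captures. The wild-type captures gave 13.4, 210.5, 127.4 and 190.1, and hand-dissected mesenchyme gave 119.0, 9.5 and 31.3. It exceeded the array median in 2 arrays, both wild-type captures, and was therefore tested in no comparison. Its differences were −0.38 for bud against hand-dissected mesenchyme, −1.43 for null against wild-type captures and 0.90 for captured against hand-dissected mesenchyme. At signals this low the differences carry little information.

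Around Slc26a7 on chromosome 4, the gene table lists 10 neighbours, 5 on each side, of which 4 have a probe set here. Otud6b, a deubiquitinase, differed by 0.50 between bud and hand-dissected mesenchyme (adjusted p = 0.0743 by limma) and by −0.53 between null and wild-type captures. Pip4p2, a lipid phosphatase, differed by −0.60 (adjusted p = 0.211 by limma) and −0.54 in these comparisons. Lrrc69, the next gene, and Necab1 were too dim to test in either. The differences of the 4 neighbours lay between −0.60 and 0.56 in these comparisons.

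**Figure D2:**
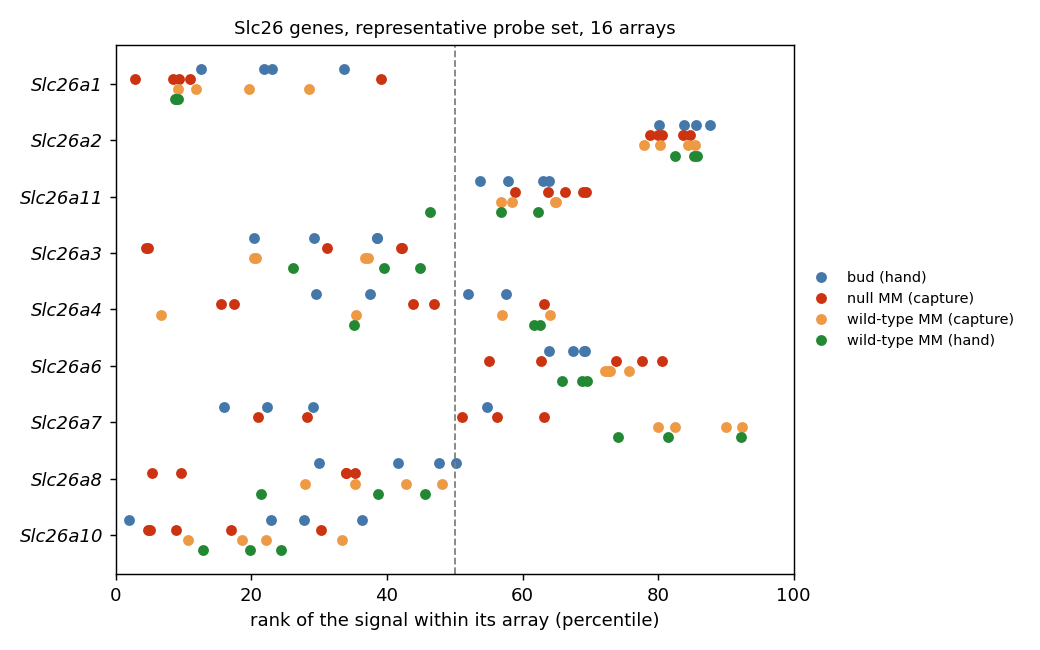
Percentile rank of each member's representative signal within its own array (horizontal axis), 1 point per array, coloured by group, with the array median as a dashed line. Slc26a2 and Slc26a6 stand above the median in 16 of 16 arrays and Slc26a11 in 15, Slc26a7 changes side between groups, and Slc26a1, Slc26a3 and Slc26a10 stand below it in every array.

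Among the sulfate carriers, Slc26a2, which supplies sulfate for cartilage proteoglycans and is mutated in diastrophic dysplasia, was above the median in 16 of 16 arrays. Its brightest probe set gave 4304.1, 3560.4, 2829.6 and 1898.6 in bud. The null captures gave 2065.2, 3004.6, 1883.7, 2755.4 and 1569.3, the wild-type captures 1972.7, 1632.0, 3068.0 and 3405.7, and hand-dissected mesenchyme 3301.9, 2457.9 and 3313.4. The 4 groups overlapped one another. Bud differed from hand-dissected mesenchyme by 0.01 on the log2 scale (SE 0.28, adjusted p = 0.987 by limma), and captured from hand-dissected mesenchyme by −0.31 (SE 0.27, adjusted p = 0.437 by limma). Null and wild-type captures differed by −0.13 (SE 0.28).

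A second Slc26a2 probe set was above the median in 12 arrays. It gave 112.5, 271.7, 159.0 and 209.7 in bud and 1692.0, 574.1, 401.0, 166.2 and 338.8 in the null captures. The wild-type captures gave 211.1, 113.7, 231.4 and 443.9, and hand-dissected mesenchyme gave 9.7, 116.6 and 184.7. Null replicate 1 stood far above the other arrays. The difference between null and wild-type captures was 0.96 (SE 0.58), that between bud and hand-dissected mesenchyme 0.90 (SE 0.49, adjusted p = 0.208 by limma), and that between captured and hand-dissected mesenchyme 1.18 (SE 0.56, adjusted p = 0.145 by limma). Single arrays set much of these differences. Without null replicate 1 the difference between the captures was 0.52. Without hand-dissected replicate 5, bud against hand-dissected mesenchyme gave 0.24 and captured against hand-dissected mesenchyme 0.52. The remaining Slc26a2 probe set exceeded the median in 1 array.

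Slc26a11, a sulfate and chloride carrier, was above the median in 15 of 16 arrays. Its signals were 164.1, 402.0, 216.9 and 341.0 in bud and 847.6, 361.5, 443.5, 240.6 and 605.8 in the null captures. The wild-type captures gave 507.6, 284.9, 490.7 and 321.5, and hand-dissected mesenchyme 125.4, 225.9 and 328.1. The groups overlapped in every comparison. Bud against hand-dissected mesenchyme gave 0.28 (SE 0.35, adjusted p = 0.609 by limma) and captured against hand-dissected mesenchyme 0.77 (SE 0.36, adjusted p = 0.135 by limma). Null against wild-type captures gave 0.22 (SE 0.39). Slc26a11 overlaps Sgsh, a lysosomal sulfatase of heparan sulfate breakdown, in the gene table, and the probe position was not checked against that overlap. Slc26a1, a sulfate and oxalate carrier, overlaps Idua, and both of its probe sets stayed at or below the median in every array, at 3.2 to 116.8 and 0.5 to 45.5.

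Among the chloride and bicarbonate exchangers, Slc26a6 was above the median in all 16 arrays. Its signals were 354.0, 679.1, 642.3 and 524.0 in bud and 292.9, 329.8, 941.5, 1471.7 and 1865.7 in the null captures. They were 1003.6, 983.7, 1004.7 and 1376.1 in the wild-type captures and 407.6, 649.3 and 601.8 in hand-dissected mesenchyme. The wild-type captures lay above all hand-dissected and all bud arrays, and 35.2% of all probe sets tested had captured and hand-dissected groups that did not overlap, while the null captures spanned the whole range. Captured and hand-dissected mesenchyme averaged 1092 ± 190 and 553 ± 128 (SD, n = 4 and 3), and Slc26a6 rose by 0.95 on the log2 scale with capture (SE 0.26, adjusted p = 0.0205 by limma). Of the 5 tested Slc26 probe sets other than those of Slc26a7, it was the 1 called higher there and 0 were called lower, beside 24.8% of 23612 tested probe sets called, 16.3% of them as higher and 8.51% as lower among all tested. Slc26a7 was left out of this count, since the wild-type captures had served to choose it.

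That call did not hold under every alternative. The adjusted p by limma was 0.0622 after quantile normalization (0.67), 0.0592 with arrays centred on their medians (0.75) and 0.229 with all 16 arrays in one fit (0.95). Without wild-type capture replicate 4 it was 0.0562 (0.84), and without hand-dissected replicate 5 or 7 it was 0.0680 (0.76) or 0.0526 (1.02). Blood and bud markers were also higher in the captures. Ureteric bud markers had 10 of 13 called higher, with a median of 2.29, and blood and macrophage markers 7 of 9, with a median of 1.78, beside 1659 of 12172 genes called higher. Their summed signals in captured and hand-dissected mesenchyme were 15567 to 65260 and 4125 to 13975 for bud markers, and 37619 to 102886 and 26882 to 33301 for blood markers. Their part in the Slc26a6 result was not tested. Bud differed from hand-dissected mesenchyme by −0.02 (SE 0.27, adjusted p = 0.967 by limma), and null from wild-type captures by −0.47 (SE 0.52).

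Slc26a4, pendrin, was above the median in 7 of 16 arrays. It gave 210.7, 65.1, 141.1 and 44.5 in bud and 25.7, 343.4, 86.4, 10.6 and 110.0 in the null captures. The wild-type captures gave 8.8, 86.9, 261.0 and 505.5, and hand-dissected mesenchyme 292.2, 351.2 and 69.0. High and low arrays occurred in every group. The differences were −0.79 for bud against hand-dissected mesenchyme (SE 0.50, adjusted p = 0.287 by limma) and −0.46 for captured against hand-dissected mesenchyme (SE 0.76, adjusted p = 0.695 by limma). It was too dim in the captures for a test of null against wild type.

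The remaining members stood near the floor of the arrays. Slc26a3, the intestinal chloride and bicarbonate exchanger, has 4 probe sets, of which 3 exceeded the median in 0 arrays and 1 in a single array, with a highest signal of 118.6. Slc26a8 has 2 probe sets, which exceeded the median in 1 and 0 arrays, at 4.7 to 163.5 and 11.9 to 158.2. Slc26a10, which overlaps B4galnt1, stayed between 2.7 and 68.3. Low signals on this platform do not show that a transcript is absent.

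**Figure D3:**
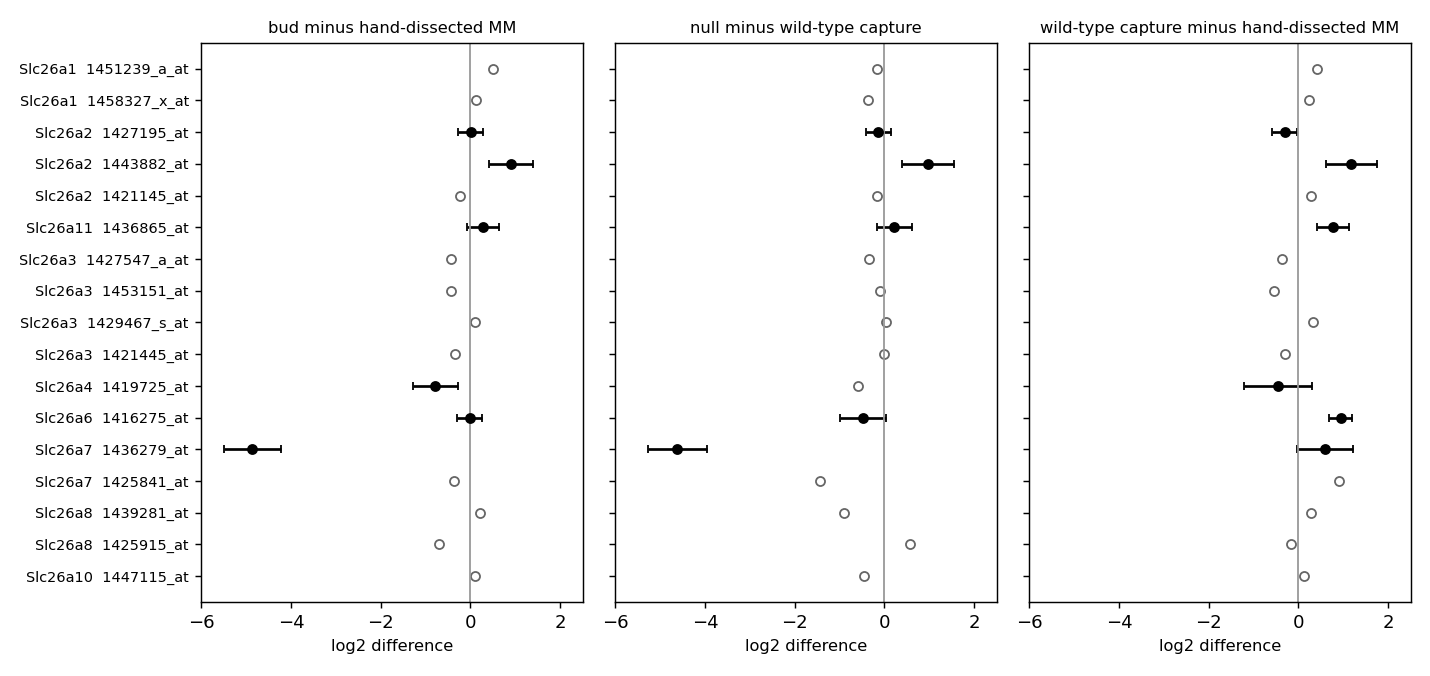
Log2 difference of each Slc26 probe set in bud minus hand-dissected mesenchyme, null minus wild-type capture and wild-type capture minus hand-dissected mesenchyme. Filled points with SE bars passed the filter on dim probe sets and open points did not; Slc26a7 lies at −4.87 and −4.62 in the first 2 comparisons, and the other filled points lie between −0.79 and 1.18.

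Over the tested Slc26 probe sets the median difference was −0.01 in bud against hand-dissected mesenchyme, −0.13 in null against wild-type captures and 0.68 in captured against hand-dissected mesenchyme. Over all probe sets tested in each comparison it was 0.02, −0.15 and 0.11. The members that passed the filter are the brighter ones, 6, 5 and 6 of the 17 in these comparisons, and do not stand for the family.

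Genes whose signals followed those of Slc26a7 over the arrays were ranked by Pearson's r on the log2 scale, a description over arrays that fall into 4 groups. Over all 16 arrays and 13065 genes, the 10 most alike were Stab2 (0.964), Iigp1 (0.957), S100a13 (0.955), Creb5 (0.937), Sox7 (0.935), Pf4 (0.909), Piezo2 (0.903), Kctd12b (0.902), Ifi202b (0.899) and Zeb2 (0.897). Stab2 encodes a scavenger receptor of sinusoidal endothelium. It averaged 84.7 ± 28.5 in bud, 132 ± 25.1 in null captures, 545 ± 244 in wild-type captures and 404 ± 166 in hand-dissected mesenchyme. Pf4 encodes a chemokine of platelets and their precursors. It averaged 309 ± 47.1 in bud, 664 ± 447 in null captures, 2968 ± 1346 in wild-type captures and 2682 ± 109 in hand-dissected mesenchyme. Iigp1, an interferon-induced GTPase, averaged 121 ± 30.8, 201 ± 109, 1543 ± 492 and 1159 ± 882 in the same 4 groups. S100a13 averaged 177 ± 34.6, 186 ± 19.2, 345 ± 61.9 and 401 ± 94.4 in them. Creb5 averaged 45.7 ± 17.6, 85.3 ± 58.8, 533 ± 430 and 456 ± 261, and Sox7 averaged 119 ± 68.8, 144 ± 60.8, 491 ± 157 and 407 ± 148. The cell types that carry these 10 genes were not tested. Since r rewards a shared order of groups, every gene high in wild-type mesenchyme and low elsewhere can enter this list. The other members had r of 0.06 (Slc26a2), 0.20 (Slc26a4), 0.15 (Slc26a6) and 0.03 (Slc26a11).

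**Figure D4:**
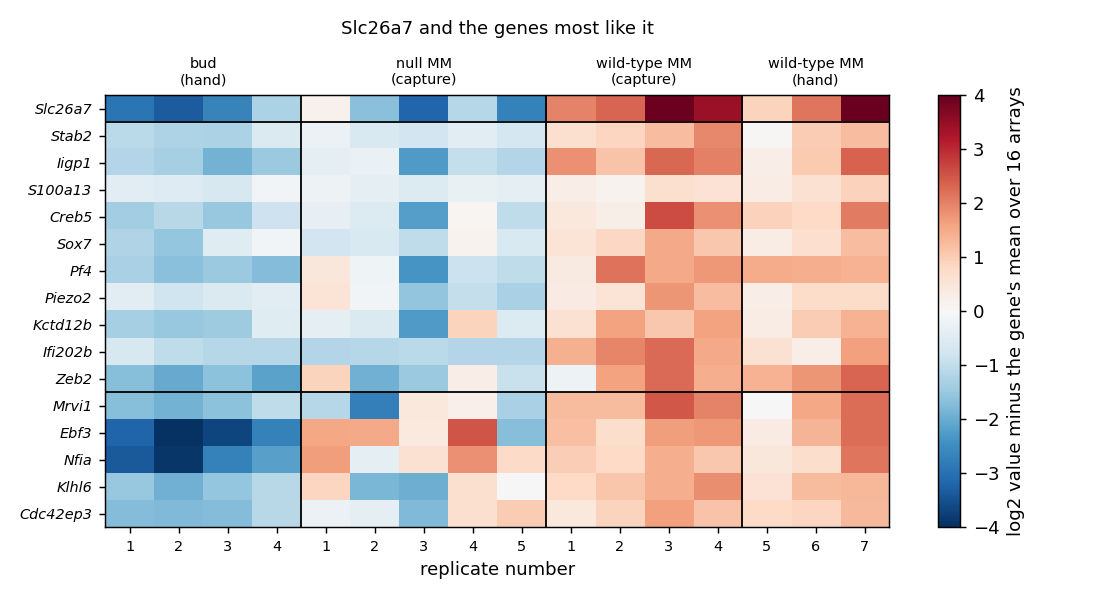
Log2 value minus the gene's own mean over the 16 arrays (colour scale) for Slc26a7, the 10 genes most like it over all arrays (upper block) and the 5 most like it over the wild-type arrays (lower block), with arrays in columns by group. The upper block is mostly low in bud and null arrays and high in wild-type mesenchyme, whereas Ebf3 and Nfia in the lower block are low in bud and mostly high in null captures.

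With the null captures left out, over 11 wild-type arrays and 12481 genes, the 5 most alike were Mrvi1 (0.992), Ebf3 (0.982), Nfia (0.981), Klhl6 (0.981) and Cdc42ep3 (0.980). None of them was among the 10 above. The null captures had no part in this choice, but the 4 wild-type captures did, and they had also served to choose Slc26a7. The values below are therefore a description. Mrvi1, a smooth muscle signalling protein, averaged 270 ± 224 in null and 1538 ± 671 in wild-type captures. Ebf3, a transcription factor, averaged 3980 ± 3150 and 3983 ± 1250 in these groups, and Nfia, another transcription factor, 1773 ± 994 and 1761 ± 373. Klhl6 averaged 585 ± 452 in null and 1577 ± 522 in wild-type captures, and Cdc42ep3, an effector of the GTPase Cdc42, 1780 ± 1123 and 3465 ± 1213. The means of Mrvi1, Klhl6 and Cdc42ep3 were thus lower in null captures, and those of Ebf3 and Nfia were near the wild-type means. The log2 differences were −2.66 (SE 0.60) for Mrvi1, −1.75 (SE 0.60) for Klhl6 and −1.16 (SE 0.49) for Cdc42ep3. None of these passed the threshold, beside 0.995% of all tested genes called lower. Null and wild-type captures overlapped for Klhl6 and Cdc42ep3 but not for Mrvi1, beside 8.82% of tested probe sets without overlap. Among the other members Slc26a6 had an r of 0.59 over these 11 arrays and Slc26a2 of −0.22.

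Genes that work beside the family were counted by list, from the representative probe set of each gene. The list for sulfate activation and heparan sulfate chains also held Chst2 and Chst11, sulfotransferases of other sugar chains. Of its 20 genes, 17 were tested in bud against hand-dissected mesenchyme. Of these, 5 were higher and 4 lower, with a median of 0.05, beside 13.9% of 12435 tested genes called higher and 14.6% called lower. Hs3st3b1 and Hs3st3a1, which add sulfate at the 3-O position of heparan sulfate, were higher in bud by 4.69 (SE 0.28, adjusted p = 2.5e-07 by limma) and 3.44 (SE 0.25, adjusted p = 1.24e-06 by limma). Hs3st3b1 averaged 6149 ± 2170 in bud and 195 ± 36.1 in hand-dissected mesenchyme. Sulf1, which removes 6-O sulfate outside the cell, fell by 4.38 in bud (SE 0.56, adjusted p = 0.000129 by limma), at 483 ± 451 in bud and 8199 ± 2372 in hand-dissected mesenchyme. Chst2, a carbohydrate sulfotransferase, fell by 4.28 (SE 0.29, adjusted p = 7.17e-07 by limma). Chst2 was at or below the array median in all bud arrays and Hs3st3a1 in all hand-dissected arrays, so the sizes of their differences depend on the offset. The filter admitted these genes only through the group where they were high. Their p-values are given as a description only. Papss1, which makes the sulfate donor, gave 0.01 (SE 0.20, adjusted p = 0.989 by limma). In null against wild-type captures 0 of 18 tested genes of this list passed the threshold, beside 0.748% of 12161 genes called higher and 0.995% called lower, with a median of 0.49. In captured against hand-dissected mesenchyme 1 was higher (Hs6st1) and 2 were lower (Glce, −0.81, and Papss1, −0.57) of 17, beside 13.6% of genes called higher and 9.88% called lower.

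**Figure D5:**
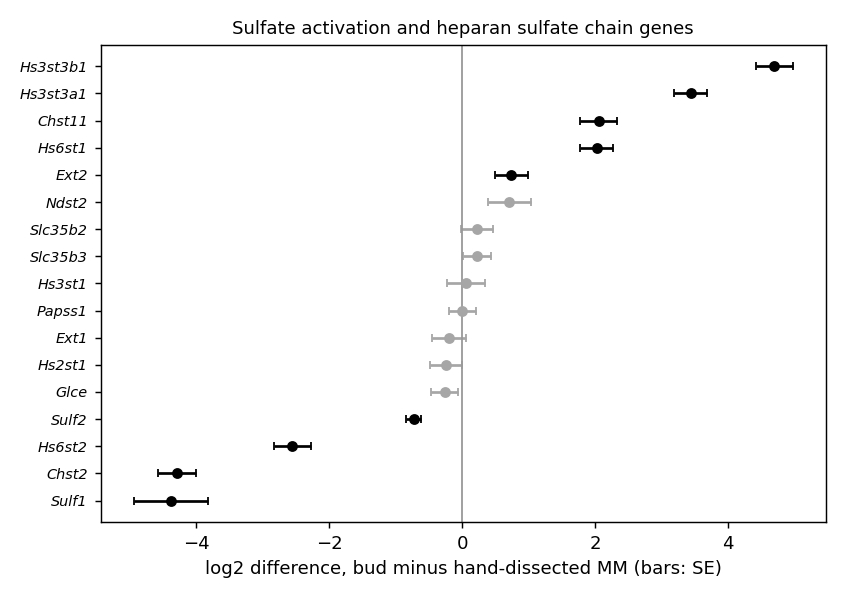
Log2 difference, bud minus hand-dissected mesenchyme, with SE bars, for the 17 tested genes of the list for sulfate activation and heparan sulfate chains, which also holds Chst2. The 9 called genes are black and the others grey, and the differences run from 4.69 for Hs3st3b1 to −4.38 for Sulf1.

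Other chloride and bicarbonate transporters had 4 higher and 4 lower of 16 tested in bud against hand-dissected mesenchyme, with a median of 0.21, beside 13.9% and 14.6% of all tested genes. Slc4a5, a sodium bicarbonate cotransporter, was higher in bud by 2.83 (SE 0.28, adjusted p = 1.77e-05 by limma), and the chloride channel gene Ano1 by 2.56 (SE 0.31, adjusted p = 9.63e-05 by limma). Cftr, another chloride channel gene, fell by 3.07 in bud (SE 0.40, adjusted p = 0.000143 by limma), at 54.0 ± 47.5 in bud and 686 ± 268 in hand-dissected mesenchyme. Cftr in bud and Slc4a5 in hand-dissected mesenchyme were at or below the array median in all arrays, and the sizes of these differences depend on the offset. Both genes passed the filter only through the group where they were high, so their p-values are a description only. Slc4a1, the red cell and intercalated cell exchanger, fell by 2.04 (SE 0.30, adjusted p = 0.000364 by limma). In null against wild-type captures 0 of 15 were called, with a median of 0.13, beside 0.748% of all tested genes called higher and 0.995% called lower. In captured against hand-dissected mesenchyme 4 of 15 were higher and 0 lower, beside 13.6% and 9.88% of all tested genes, with Slc4a1 at 2.32 (SE 0.59, adjusted p = 0.0164 by limma) and the lysosomal chloride transporter gene Clcn7 at 1.17 (SE 0.26, adjusted p = 0.00834 by limma). Slc4a1 stands in the blood marker list as well.

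The carbonic anhydrase family includes enzymes that make the bicarbonate that the exchangers move, though not every listed member is such an enzyme. The list had 2 higher and 3 lower of 12 tested in bud against hand-dissected mesenchyme, beside 13.9% and 14.6% of all tested genes. Car12 rose by 2.12 in bud (SE 0.25, adjusted p = 7.23e-05 by limma) and Car2 by 1.62 (SE 0.27, adjusted p = 0.00089 by limma), while Car9 fell by 1.95 (SE 0.40, adjusted p = 0.00368 by limma) and Car4 by 1.19 (SE 0.32, adjusted p = 0.0199 by limma). Car9 was at or below the array median in all bud arrays and passed the filter through hand-dissected mesenchyme alone, so its p-value is a description only. In null against wild-type captures 0 of 10 were called, beside 0.748% of all tested genes called higher and 0.995% called lower. In captured against hand-dissected mesenchyme 3 of 11 were higher, beside 13.6% of all tested genes. Among them were Car2 by 2.10 (SE 0.45, adjusted p = 0.00723 by limma) and Car3 by 1.13 (SE 0.25, adjusted p = 0.0079 by limma).

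Of 15 genes of the adult intercalated cell, the cell type in which Slc26a7 is best known, most stood too low for a test. Tfcp2l1, a transcription factor of the collecting duct, rose by 5.67 in bud (SE 0.29, adjusted p = 1.02e-07 by limma), at 9500 ± 3164 in bud and 146 ± 45.9 in hand-dissected mesenchyme. Slc4a1 was the other gene of this list called there, as lower. Of 3 tested, 1 was thus higher and 1 lower, beside 13.9% of all tested genes called higher and 14.6% called lower. The proton pump subunit genes Atp6v1b1, Atp6v0a4 and Atp6v1c2 and the regulator Foxi1 were not tested in any comparison. Their means were at most 75.4 in every group. In null against wild-type captures 0 of 4 tested genes were called, with a median of −1.31, beside 0.748% of all tested genes called higher and 0.995% called lower. In captured against hand-dissected mesenchyme 2 of 4 were higher, Slc4a1 and Tfcp2l1 (1.71, SE 0.50, adjusted p = 0.0275 by limma). Over all tested genes 13.6% were called higher there and 9.88% lower. With so few genes tested, nothing is read from the counts of this list.

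The last list held scaffold proteins that bind exchangers of this family through PDZ domains, together with Ezr, the membrane linker of these scaffolds. In bud against hand-dissected mesenchyme 1 of 5 tested genes was called, as higher, beside 13.9% of all tested genes called higher. This was the linker Ezr, which rose by 2.89 in bud (SE 0.20, adjusted p = 1.01e-06 by limma). No scaffold gene was called there. In null against wild-type captures 1 of 4 was called lower, beside 0.995% of all tested genes. This was Slc9a3r2, which averaged 456 ± 91.7 in null and 1347 ± 465 in wild-type captures, a difference of −1.45 (SE 0.31). None of 4 was called in captured against hand-dissected mesenchyme, beside 13.6% of all tested genes called higher and 9.88% called lower. Slc9a3r2 gave 0.57 there (SE 0.37, adjusted p = 0.281 by limma).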

How the data were processed

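RNA was amplified, hybridized to Affymetrix mouse arrays and deposited by the authors as MAS5 signals, a linear intensity, as named in the submitters' processing notes. The version of MAS5 is not stated there, and detection calls were not used. The values showed that each array had been scaled to a mean of 1500 after 2% was trimmed from each tail, which assumes equal total expression. Of the 45101 probe sets, 64 controls were left out, and of the rest 34945 had 1 symbol in the platform annotation, 932 several and 9160 none. No 2 arrays held identical values. The number of arrays limits the precision.

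Each comparison was fitted with limma 3.58.1 (R 4.3.3; lmFit and eBayes with a trend) on log2(signal + 36.3) over its own groups, after the filter on dim probe sets given with the results. Python 3.11.15 was used for summaries. On simulated data, log2 changes of 1 and 2 were recovered in 22% and 85% of cases for bud against hand-dissected mesenchyme, 17% and 70% for null against wild-type captures, and 21% and 65% for captured against hand-dissected mesenchyme. The changes were planted only in probe sets whose mean passed the median of all means, with normally distributed noise. The rates therefore do not describe the dim Slc26 probe sets. A gene is represented by its probe set with the highest mean over 16 arrays. The members and lists were chosen with earlier results of these data known. Named are all members, the genes next to Slc26a7 in likeness, position and difference, the called list genes with the 2 largest differences in each direction, and both Hox genes. Further list genes with lower rank are named to complete counts and were chosen after their values were seen. Alternatives varied the offset, filter, normalization, weights, arrays in the fit and replicates.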

Additional observations from a re-analysis of the deposited data

Results flagged for a closer look

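In each group of 4 or 5 arrays, the signal of every Slc26 probe set was checked for 1 array that stood apart, meaning that its gap to the nearest other array, over the group's range, passed Dixon's 95% critical value. Of 51 groups, 7 held such an array, and each of the 7 was the highest of its group. Chance gives about 1 in 20 only for normally distributed values, whereas the check used linear signals. The count is therefore not read as an excess over chance. Null capture replicate 1 stood high for the brighter Slc26a1 probe set at 116.8 (next 9.5) and for the second Slc26a2 probe set at 1692.0 (next 574.1). The median of this whole array was also high, at 209.2 against 112.7 to 128.9 in the other null captures. The part of that in these values was not tested. Null capture replicate 3 gave 72.4 for one of the dim Slc26a3 probe sets (next 20.4), and null capture replicate 2 gave 112.8 for another of them (next 34.1). Null capture replicate 5 gave 46.8 for Slc26a10 (next 13.8). Wild-type capture replicate 4 gave 1376.1 for Slc26a6 (next 1004.7), and bud replicate 3 gave 76.1 for the dim Slc26a7 probe set (next 17.2). Slc26a6 and the second Slc26a2 probe set were otherwise mostly above the array median, and the other 5 values lie among dim signals.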

How the results depend on the processing

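The count of Slc26 probe sets called in bud against hand-dissected mesenchyme was 1 in all 18 alternatives. In captured against hand-dissected mesenchyme the count without Slc26a7 was 0 after quantile normalization, with arrays centred on their medians and with all 16 arrays in one fit, and 0 to 1 when each replicate was left out. The Slc26a7 difference between null and wild-type captures was −5.09 to −4.25 when each replicate was left out and −5.06 to −3.78 otherwise. Null and wild-type capture numbers 1 to 4 did not pair the samples (correlations of deviations −0.01, 0.03, −0.05 and 0.07). With a replicate block the Slc26a7 difference was −4.36, and all calls numbered 53 in place of 411. Total calls between the captures ran from 60 to 1809 when each replicate was left out, the highest without null replicate 1 and 78 or fewer without any wild-type replicate. They were 256 with no filter, 207 with centred arrays, 1654 with array weights and 1793 with all 16 arrays. For bud against hand-dissected mesenchyme, calls numbered 5701, against 10132 with array weights and 3580 with all 16 arrays. For captured against hand-dissected mesenchyme they numbered 5866, against 2811 with all 16 arrays and 3384 to 5994 when each replicate was left out. Centring on array medians moved the share of calls that were higher to 64.6% from 51.8% in the bud comparison. Between the captures it was 33.6%, and 39.6%, 46.2% and 65.7% after quantile, loess and centring. For captured against hand-dissected mesenchyme it was 65.8%, and 53.4%, 56.0% and 43.2%. The median over all probe sets moved to 0.15 between the captures with centring, from −0.15. Uncalled or untested differences changed sign under some settings for the brightest Slc26a2 probe set, Slc26a6 and Slc26a11 in bud against hand-dissected mesenchyme and for Slc26a4 and Slc26a7 (−0.13 to 1.40) in captured against hand-dissected mesenchyme. So did the brightest Slc26a2 probe set between null and wild-type captures (−0.32 to 0.17). The causes were not tested.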
